A study of Caenorhabditis elegans with 3 samples.

Results

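Of the 4739 sites in the optimal list of PQM-1 binding sites of Caenorhabditis elegans, 1077 lay inside introns, a share of 22.7% (exact 95% interval 21.5 to 23.9%). A site was counted as intronic when its summit, the position of strongest enrichment in the peak, lay inside a protein-coding gene and outside every UTR and every coding exon. The summit also had to lie outside every promoter, which ran from 1000 bp before to 200 bp past the outermost start of any protein-coding gene. No signal or sequence entered this choice. Of the other sites, 2234 lay in promoters (47.1%) and 1099 between genes (23.2%). The intronic peaks joined to 1065 separate regions, because 24 of them overlapped another one and were counted by summit. Of the 1077 summits, 1070 lay in an annotated intron of a coding transcript and 7 in none, and values by intron below are given for the 1070.

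Whole L4 larvae of both sexes were used, and the sites were mapped by ChIP-seq, the sequencing of DNA recovered with a protein by immunoprecipitation. The strain, OP201, carries unc-119(tm4063) III and the insertion wgIs201, from which PQM-1 is made with a GFP-FLAG tag on its C-terminal end. All animals shared this genotype and stage, so the 3 libraries form 1 group with no comparison between conditions: 2 technical libraries of biological replicate 1 and 1 library of biological replicate 2. Whole animals were used, so a site bound weakly in many cells and one bound strongly in few cannot be told apart. The pqm-1 gene, with 1063 bp of intron in which a site could have been counted, held 0 intronic sites, and 0 of the 1077 lay within 20000 bp of it.

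PQM-1 is a zinc finger transcription factor that, like the forkhead factor DAF-16, acts downstream of insulin signalling, in growth, lipid storage and stress responses. It is tied to the DAF-16-associated element, the word TGATAAG, which resembles the sites of GATA factors. Most worm introns are short, and the long ones, above all first introns near the start of a gene, are known places of enhancers and of alternative promoters.

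The reference sequences at the strongest sites are printed to show how often, and how near to the summit, that word was found. The 12 shown are the strongest intronic sites apart from those on 1 chromosome that is not shown, 30 bases each of the ce11 genome (WBcel235, RefSeq), 5′ to 3′ on the strand named. Capitals mark the TGATAAG nearest the summit. Where a window reaching 100 bp to each side of the summit had none, the 30 bases are centred on the summit and capitals mark any GATA core. A GATA core was, on either strand, the word AGATAA or the word TGATAA, or either of these words ending in AG in place of AA, as in TGATAG. Every TGATAAG contains a GATA core.
T13B5.9, chrII:1103929-1103958, forward strand: atatgcaaaagTGATAAGaaaaactggtat
vhp-1, chrII:5323993-5324022, reverse strand: aaacacgcagcTGATAAGagacactatgga
pkg-2, chrIV:8530797-8530826, forward strand: atagagaaaggTGATAAGaatcttctgatt
mob-2, chrX:13165877-13165906, reverse strand: ccggatgaaagTGATAAGataataataaga
egl-44, chrII:5930288-5930317, forward strand: tatctccgttagcttcatcatcatctctat
lap-1, chrIII:8400660-8400689, forward strand: tcagcacacaattccagaaaagaatagtct
egl-27, chrII:6842781-6842810, forward strand: agcgggcagccagccaacggtcggccgccc
nipa-1, chrIII:3117143-3117172, forward strand: gtcacgtttttTGATAAGataggtggtgta
mig-10, chrIII:8291813-8291842, reverse strand: tctgtgataagTGATAAGgccagttgaatc
srv-9, chrV:13421863-13421892, reverse strand: cagttcaacagTGATAAGggaagcgtatgc
F54D1.6, chrIV:11289147-11289176, forward strand: caatTTATCAcTTATCTcccataaatacac
rbf-1, chrIII:6693389-6693418, reverse strand: tagaacatgatTGATAAGacatcttaaacg
In 8 of the 12 a TGATAAG lay within the window, its centre 2 bp from the summit in mig-10 and 78 bp in rbf-1. The mig-10 sequence holds another copy directly before the capitals. In F54D1.6 the summit lay at a pair of GATA cores that read on the reverse strand. The 30 bases at egl-44, lap-1 and egl-27 hold neither word whole, and the nearest GATA cores there were centred 13.5, 15.5 and 20.5 bp from the summit.

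The strongest intronic site lay in the first intron of T13B5.9, 619 bp downstream of its start and 6th in signal among all 4739 sites. Its deposited signal was 283 in the optimal list, 70.7 in the list of replicate 1 and 209 in that of replicate 2. Signal is the authors' value per peak, set against a control, and the lists of the replicates have scales of their own, so values are compared within a list. Next came vhp-1, which encodes a MAP kinase phosphatase, with 228 (65.9 in replicate 1, 158 in replicate 2) in the first intron, 750 bp from the start. The site in pkg-2, a cGMP-dependent protein kinase gene, had 224 (63.3 and 168) in intron 4, and that in mob-2, of the MOB family of kinase activators, had 222 (55.5 and 169) in intron 2. These 4 sites were among the 17 strongest of the whole list.

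In egl-44, the worm TEAD factor, a first-intron site had a signal of 214 (64.9 and 150). The leucine aminopeptidase gene lap-1 had 213 (59.5 and 154) in an intron of 347 bp, the shortest to hold 1 of the 25 strongest. The gene erm-1, whose product links the apical membrane of gut cells to the cytoskeleton, held 2 of the 25, with 204 (67.2 and 136) in intron 6 and 190 (52.9 and 141) in the first intron. The remaining ones between 190 and 154 lay in egl-27, a chromatin regulator related to MTA1, nipa-1, mig-10, srv-9, F54D1.6, rbf-1, C12D12.1, Y32F6A.4, gfi-2, hrg-1, saeg-1, eps-8, acbp-1, cam-1, Y119C1A.1, fat-4 and pcyt-1. Of these, hrg-1 encodes a heme transporter, acbp-1 an acyl-CoA-binding protein, fat-4 a fatty acid desaturase, pcyt-1 an enzyme of phosphatidylcholine synthesis and eps-8 an actin regulator of microvilli. The product of mig-10 is a Lamellipodin-family adaptor, that of rbf-1 the worm rabphilin and that of cam-1 a ROR receptor kinase.

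All 25 were found in both replicate lists, which the making of the optimal list from both replicates nearly ensures. Their signals were 32.8 to 70.7 in replicate 1 and 102 to 209 in replicate 2. T13B5.9 led both lists among the 25. C12D12.1 ranked next in replicate 1 (68.6) but near the end in replicate 2 (103), and gfi-2 was lowest in replicate 1 (32.8) with 131 in replicate 2. A GATA core lay in all 25 windows and TGATAAG in 12, and the nearest GATA core was centred a median of 13.5 bp from the summit. First introns held 12 of the 25, and the introns of all 25 ran from 347 to 14198 bp with a median of 2756 bp.

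**Figure D1:**
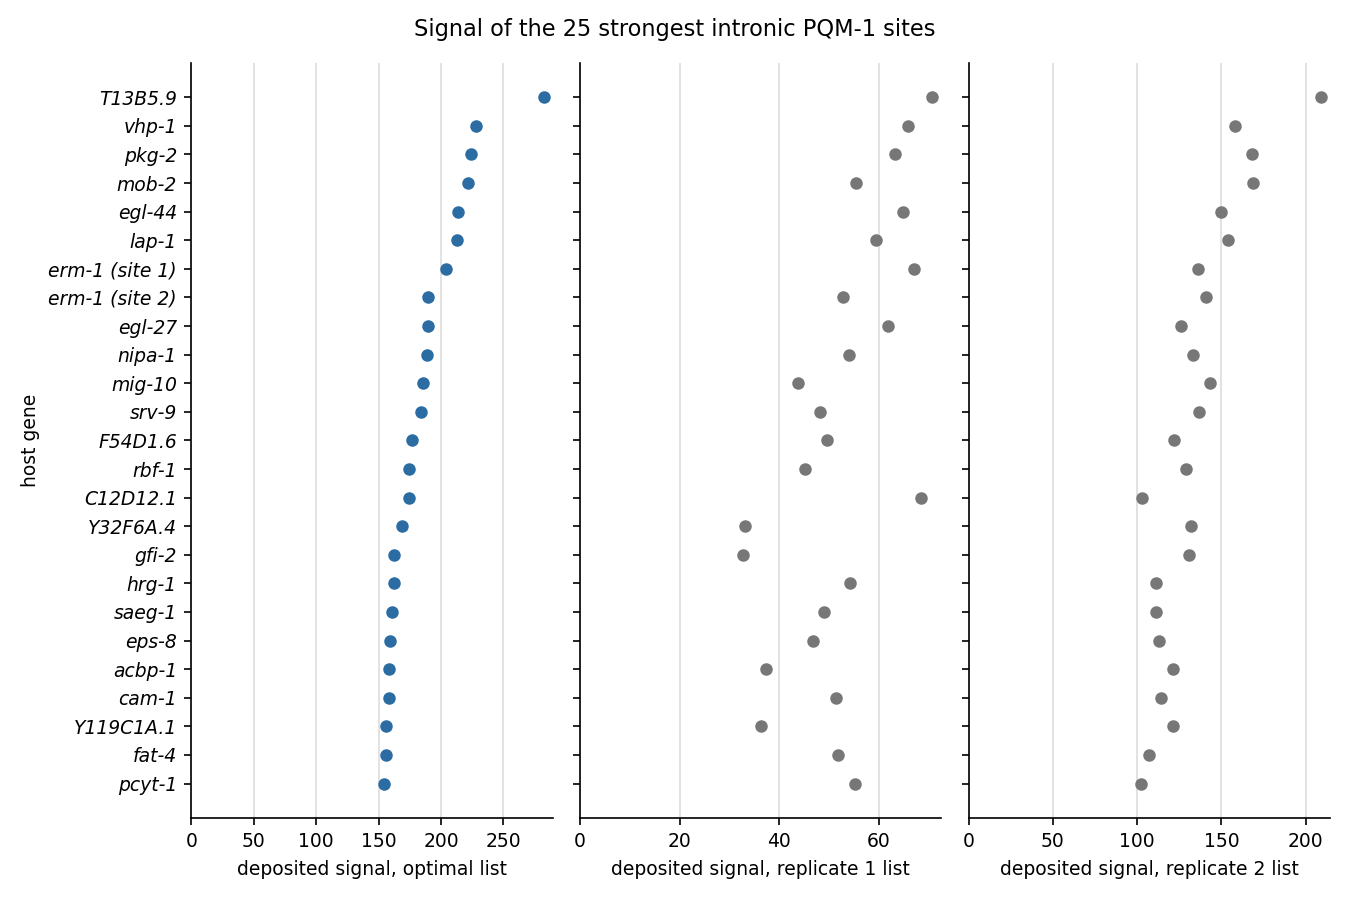
Deposited signal of the 25 strongest intronic sites (rows, by host gene) in the optimal list, the replicate 1 list and the replicate 2 list, each on its own horizontal axis from 0. The order of the optimal list, from 283 to 154, was kept loosely within each replicate, where values ran from 32.8 to 70.7 and from 102 to 209.

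The median signal of all intronic sites was 55.9, with quartiles of 42.3 and 78.2 and a range of 31.6 to 283. Promoter sites had a median of 55.1 and intergenic sites one of 55.6, and the medians in the replicate lists were as close (17.2, 17.3 and 17.5 in replicate 1, 40.1, 39.5 and 41.3 in replicate 2, for intronic, promoter and intergenic sites). Of intronic sites, 216 (20.1%) were among the strongest 20% of the list, against 429 promoter sites (19.2%) and 229 intergenic ones (20.8%). The differences were 0.852 percentage points (95% interval -1.99 to 3.81, adjusted p = 0.671, two-sided Fisher's exact test) and -0.781 points (-4.17 to 2.61, adjusted p = 0.671). No difference was detectable, and the intervals allow up to about 4 points either way. Within each 20% of the list by signal, intronic sites made up 21.1, 24.1, 22.8, 22.9 and 22.8% from the weakest to the strongest.

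The optimal list rests on both replicates, and the replicate lists also hold background peaks, so high overlap was built in. By count, 1070 intronic sites (99.4%) were met by a peak in both replicate lists, 1071 in that of replicate 1 and 1076 in that of replicate 2. Across those 1070 sites the Spearman correlation of the replicates' signals was 0.557, a description over sites that share libraries.

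TGATAAG lay in the window of 512 of the 1077 intronic sites, or 47.5% (44.5 to 50.6%), and a GATA core in 947, or 87.9% (85.8 to 89.8%). In 1178 intronic windows of the same size 1000 bp away, the shares were 3.23% and 38.5%, so the longer word was 14.7 times and the core 2.28 times as frequent at summits. G and C made up 37.9% ± 6.19 (SD, n = 1077) of the bases in summit windows and 34.6% in those flanking windows. Among sites with TGATAAG the nearest copy was centred a median of 25 bp from the summit, and within 30 bp in 300 of 512 (58.6%).

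The GATA core was more frequent at intronic than at promoter sites, 87.9% against 79.9%. The difference was 7.98 percentage points (5.35 to 10.5, p = 7.21e-09, adjusted p = 8.65e-08, two-sided Fisher's exact test adjusted over 12 motif tests). Against intergenic sites, at 87.6%, the difference was 0.304 points (-2.46 to 3.06, adjusted p = 0.865 by the same exact test). Intronic windows held a mean of 1.88 GATA cores, promoter windows 1.66 and intergenic windows 1.81. The windows had close base composition, with G and C at 37.2% in promoter and 37.4% in intergenic windows.

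For TGATAAG itself the shares were 47.5% at intronic, 42.7% at promoter and 44.2% at intergenic sites. The difference from promoter sites, 4.88 points (1.27 to 8.49), did not pass adjustment (adjusted p = 0.0536, Fisher's exact test). It lay on the other side of the threshold under 6 of 9 other settings, for example at 8.30 points with an adjusted exact p = 0.000366 when promoters at every annotated transcript start were set apart. Against intergenic sites it was 3.32 points (-0.869 to 7.49, adjusted p = 0.365, Fisher's exact test), and 6.45 points with adjusted p = 0.0272 under that same setting.

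The other words were CACGTG (the E-box of HLH-30 and related factors), GTAAACA (the forkhead element that DAF-16 binds), GAGAGA and TTCNNGAA (a pair of heat shock factor half-sites), each on both strands. CACGTG was in 7.15% of intronic windows and 3.57% of flanking ones, GTAAACA in 5.11 and 1.95%, and GAGAGA in 28.1 and 13.3%. TTCNNGAA was less frequent at summits than beside them, 7.89 against 13.8%. None of the 8 tests of these words against promoter or intergenic sites passed, and the difference closest to the threshold was that of GAGAGA from promoter sites, 3.11 points (-0.0761 to 6.38, adjusted p = 0.229, Fisher's exact test). Without replicate 2 that difference was 4.42 points and passed (adjusted p = 0.0355, same exact test).

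A scan of all 8192 words of 7 bases found 0 more frequent (0.0% of those tested) and 0 less frequent (0.0%) at intronic than at promoter sites after adjustment by Fisher's exact test. At an unadjusted p under 0.05 by the same exact test there were 549 of the 8192, 299 of them more frequent at intronic sites. Among so many words some pass an unadjusted threshold without any difference, and 0 of the 549 passed adjustment. Closest to the threshold were CAATAAA, in 6.96% of intronic against 11.7% of promoter windows, AAAAATA (14.6 against 20.7%) and TATAAAA (6.31 against 10.7%), each with adjusted p = 0.0838 by the exact test. On the other side TACAGTA was in 3.53% of intronic against 1.30% of promoter windows (adjusted p = 0.0876, exact test). With 2 times as many sites from the pooled list, 105 words passed.

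The GATA words were in a larger share of the stronger intronic sites, a description with no test. In each 20% of the list from the weakest, TGATAAG was in 38.0, 36.8, 48.6, 54.4 and 59.7% of intronic sites, and a GATA core in 82.0, 80.3, 88.4, 91.2 and 97.7%. Median signal was 61.6 with TGATAAG and 50.1 without, and the medians were ordered alike in replicate 1 (18.5 and 16.2) and replicate 2 (44.3 and 36.6). The 130 sites with no GATA core had a median signal of 45.4, against 58.1 for the others.

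**Figure D2:**
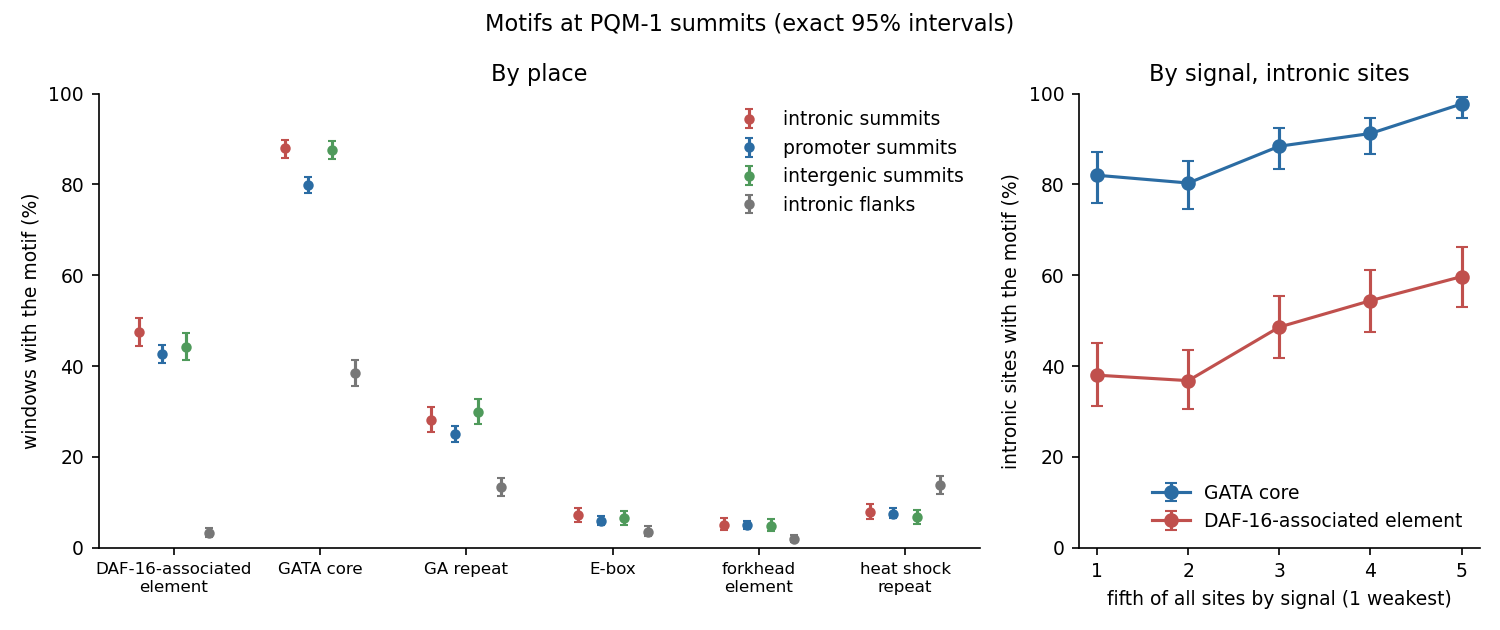
Share of windows that hold each motif (percent, exact 95% intervals), at intronic, promoter and intergenic summits and in intronic windows beside the sites (left), and the same for intronic sites by quintile of signal (right). The DAF-16-associated element was in 47.5% of intronic windows against 3.23% of those beside them, and in 38.0% of the weakest against 59.7% of the strongest quintile.

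By strand, 281 of the 612 copies of TGATAAG in intronic windows read on the coding strand of the host, 45.9% (41.9 to 50%). At 98 intronic sites (9.10%) the window held 2 or more copies, against 181 promoter sites (8.10%).

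By place within the gene, 432 of the 1070 sites (40.4%) lay in a first intron and 199 (18.6%) in an intron 2. Order was counted in the host's longest coding transcript with the summit in an intron, which can start inside the gene. In T28B11.1, for example, a site 17369 bp from the start of the gene counted as first-intron. Per Mb of eligible intron, that in which a site could have been counted, there were 60.1 sites in first introns (54.5 to 66.0) and 27.4 in later ones (25.3 to 29.6), a ratio of 2.19 (1.93 to 2.48). The density was 39.7 in intron 2, 26.0 in intron 3, 32.8 in intron 4 and 19.6 in introns 10 and later. With promoters at every annotated transcript start set apart the ratio was 1.86. For scale, promoters held 104 sites per Mb, intergenic sequence 50.8, all introns 35.2 and coding exons 6.82.

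Density was also higher in longer introns, with 20.1 sites per Mb (15.7 to 25.4) in introns under 200 bp, 66.7 (57.3 to 77.1) at 5 to 10 kb and 63.7 (51.2 to 78.3) above. The shortest introns with a summit, of 43 bp, were narrower than their peaks. Placement in short introns or the exons beside them thus rests on the summit position alone. First and later introns were farthest apart at 1 to 2 kb, with 59.8 (47.0 to 75.1) against 17.9 (14.3 to 22.2). At 2 to 5 kb they had 81.4 (68.0 to 96.6) against 41.1 (34.4 to 48.6). Their intervals were also apart at 500 to 1000 bp, 43.7 (33.5 to 56.2) against 19.8 (16.3 to 23.8), and overlapped in the other 4 length classes. These were 16.6 (5.4 to 38.8) and 20.4 (15.8 to 26.0) under 200 bp, 35.8 (23.9 to 51.3) and 25.1 (20.4 to 30.4) at 200 to 500 bp, 77.8 (62.5 to 95.7) and 58.5 (47.2 to 71.8) at 5 to 10 kb, and 62.3 (45.3 to 83.6) and 65.2 (47.7 to 86.9) above. By distance from the start of the host the density had no such gradient, 38.5 sites per Mb between 200 and 1000 bp, 34.2 between 5 and 10 kb and 29.4 (19.8 to 41.9) beyond 20 kb.

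**Figure D3:**
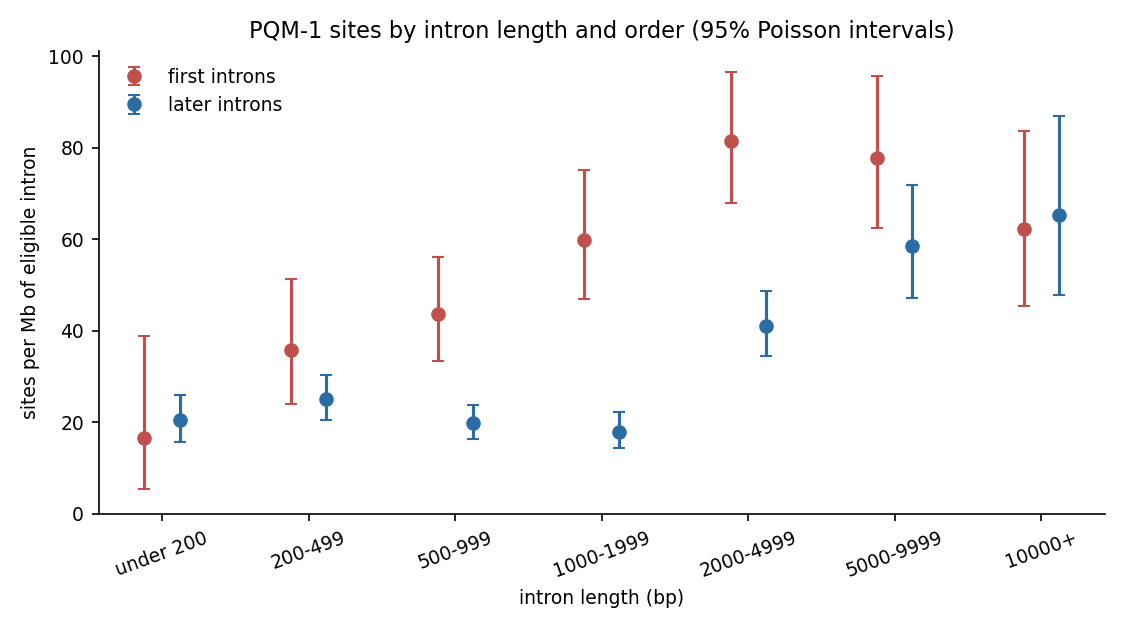
Sites per Mb of eligible intron (vertical axis) by intron length in bp (horizontal axis) for first and later introns, with exact 95% Poisson intervals. Between 1000 and 2000 bp first introns had 59.8 and later introns 17.9, while the intervals overlapped under 500 bp and from 5000 bp upwards.

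The introns around the sites had a median length of 2020 bp over sites (quartiles 652 and 5092), and the longest measured 100912 bp. Summits lay a median of 2412 bp downstream of the start of the host, up to 48411 bp, and a median of 342 bp from the nearest splice site, with 18.8% of them within 100 bp of one. More than 5000 bp separated 238 sites (22.1%) from any gene start, and for 245 (22.9%) the nearest start belonged to a gene other than the host, so host names say where a site lies and not which gene it acts on.

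At 329 sites (30.5%) the summit lay at the start of an internal transcript, from 1000 bp upstream to 200 bp downstream of it. The density there was 98.7 sites per Mb (88.4 to 110), and 27.5 (25.5 to 29.5) in the rest of the introns. Promoters held 104, but their stretches also include UTRs, coding exons and introns, so that value has an unlike base. The internal start belonged to the host gene itself at 324 of the 329, and the median offset was -295 bp, negative values being upstream. The 5 strongest were those of erm-1 (190, at -174 bp), nipa-1 (189, at -158 bp), C12D12.1 (174, at -73 bp), hrg-1 (162, at -153 bp) and saeg-1 (161, at -322 bp). All 5 lay upstream of the internal start, as did 320 of the 329. The rule favours that side: the stretch reaches 1000 bp upstream and 200 bp downstream, and UTRs and coding exons were left out.

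Sites at internal starts held TGATAAG less often than the others, 133 of 329 (40.4%) against 379 of 748 (50.7%). The difference was -10.2 percentage points (-16.5 to -3.78, p = 0.00229, adjusted p = 0.00458, two-sided Fisher's exact test adjusted over 2 tests). First-intron sites also held it less often than later ones, 182 of 432 (42.1%) against 324 of 638 (50.8%), a difference of -8.65 points (-14.6 to -2.56, adjusted p = 0.00603, same exact test). Neither passed the exact test in the stronger 50% of the peaks (-8.90 points, adjusted p = 0.118, and -4.22 points, adjusted p = 0.336), in the longer pooled list (-4.80 points, adjusted p = 0.0806, and -1.12 points, adjusted p = 0.604) or in a window reaching 50 bp to each side (-6.98 points, adjusted p = 0.0690, and -3.54 points, adjusted p = 0.248). Both splits overlap. TGATAAG was in 40% of first-intron sites at an internal start, 43.7% of other first-intron sites, 40% of later-intron sites at an internal start and 54.0% (49.4 to 58.4%) of the 493 later-intron sites away from one.

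Some sites lay beside small RNA genes nested in introns. Small nucleolar RNAs (snoRNAs) guide the chemical modification of ribosomal RNA, and 25 intronic sites lay from 1000 bp before to 200 bp past the start of a snoRNA gene. They made up 2.32% of the sites, and those stretches 0.389% of the eligible intron. Their summits lay within 200 bp of the snoRNA start in 21 of 25, at 3 bp downstream of K11C4.6 in an intron of unc-70, 6 bp downstream of W04D2.7 in inx-11 and 10 bp downstream of C08D8.3 in C08D8.1. Signals at these 3 were 44.7, 48.3 and 68.3, and the median of the 25 was 49.4. For 16 of the 25 the snoRNA gene lay on the strand of the host.

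Windows at the snoRNA genes were poor in GATA words. TGATAAG was in 2 of 25 (8.0%, 0.984 to 26.0%) and a GATA core in 11 (44.0%, 24.4 to 65.1%), against 48.7% and 89.2% (87.2 to 91.0%) of the 1048 sites away from snoRNA and small nuclear RNA (snRNA) genes. Of the 5 sites at snRNA genes (0.464% of sites, 0.145% of sequence), 1 held a GATA core. These sites were singled out after their values were seen, and the difference was not tested. The strongest, with 190 in egl-27, lay at -444 bp from the start of the snoRNA gene C04A2.16 (negative values upstream) and held 2 GATA cores, and a further summit of the same peak had 58.8. The next were 106 in cgt-3, a ceramide glucosyltransferase gene, and 86.6 in haf-9, a transporter gene of gut granules. At microRNA genes there were 8 sites (0.743% of sites, 0.233% of sequence), 6 with a GATA core, and the strongest, 108, lay by mir-8207 in magi-1. Other small RNA classes differed from these. At Piwi-interacting RNA genes there were 30 sites (2.79% of sites, 4.63% of sequence), 29 with a GATA core. At transfer RNA genes there were 5 (0.464% of sites, 0.617% of sequence), 4 with a GATA core.

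Intronic density was 50.1 sites per Mb (44.2 to 56.7) on the X chromosome and 32.2 (30.1 to 34.5) on the autosomes, a ratio of 1.56 (1.35 to 1.79). Among autosomes it ran from 27.9 to 38.7. TGATAAG was in 45.9% of the 257 sites on X and 48.0% of the 820 on autosomes, and median signals were 55.3 and 56.5. Another summit of the optimal list lay within 1000 bp of 223 intronic sites (20.7%, 18.3 to 23.3%), against 286 promoter sites (12.8%, 11.4 to 14.3%).

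The sites fell into 770 host genes, 4.39% of the 17544 protein-coding genes with any eligible intron. Of the hosts, 584 held 1 site and 186 held 2 or more (24.2%). Hosts had a median of 3623 bp of eligible intron against 744 bp over all these genes, and hosts were 0.890% of genes with under 1000 bp and 34.0% of those with 10000 bp or more. A promoter site was also present in 218 of the 770 hosts (28.3%, 25.2 to 31.6%) and in 2073 of the 16774 other genes (12.4%, 11.9 to 12.9%). The order was the same at each length of eligible intron, 42.4 against 12.4%, 34.9 against 13.3%, 25.5 against 10.7% and 14.3 against 6.35% from the shortest to the longest. Of the 28 hosts with 4 or more intronic sites, 3 had a promoter site (anc-1, tag-343 and tra-1).

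The most sites in 1 gene were the 7 of pkg-2, all in introns 4 and 5 between 6804 and 14303 bp from its start. Their signals were 116, 84.3, 224, 71.4, 39.6, 86.8 and 46.0 in that order along the gene. In the replicate 1 list they were 23.4, 36.5, 63.3, 16.7, 10.3, 26.2 and 18.8, and in the replicate 2 list 92.4, 50.1, 168, 52.4, 30.2, 58.0 and 25.3. The site with 224 was highest in each list. All 7 held a GATA core and 4 held TGATAAG. The shares over all intronic sites, to set beside these counts and those of the hosts below, were 87.9% and 47.5%.

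The 5 genes with 6 sites include regulators of signalling and chromatin. In vhp-1 the strongest, 228, lay 750 bp from the start, and the other signals were 43.8, 79.2, 33.2, 43.4 and 47.8 up to 14107 bp. One of these (33.2) had no peak in the replicate 2 list. In jun-1, the worm c-Jun, signals ran from 40.7 to 112 between 761 and 15084 bp, and 3 of 6 held TGATAAG. In daf-5, a Ski and Sno relative of the TGF-beta dauer pathway, all 6 lay in a first intron of 14446 bp, with signals of 69.2, 39.1, 88.1, 45.1, 49.6 and 38.7 from 734 to 13742 bp.

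Among the genes with 6 sites, zfp-1 and anc-1 had few GATA words. In zfp-1, the AF10 homolog of chromatin regulation, TGATAAG was in 0 of 6 windows and a GATA core in 2, with signals of 38.7 to 124. Its peaks with 47.5 and 38.7 overlap, and neither held a GATA core. In anc-1, a nesprin that anchors nuclei, TGATAAG was in 0 of 6 and a GATA core in 3, with 35.9 to 92.6. All 4 sites of tir-1, the SARM adaptor of innate immunity, held TGATAAG, with signals of 49.7 to 80.4. These genes were singled out by their counts, which were not tested. Over all intronic sites the shares were 47.5% for TGATAAG and 87.9% for a GATA core. TGATAAG was also in 0 windows of lin-14 (5 sites), pes-4 and nhr-19 (4 sites each).

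Hosts with 5 sites were spat-2, crh-2, lin-14, daf-16, T28B11.1 and hlh-30. The TFEB homolog hlh-30, a regulator of autophagy and lipid use, had signals of 74.7, 34.2, 38.8, 44.0 and 37.8 between 5474 and 15120 bp from its start. In lin-14, a heterochronic regulator, they were 49.4, 42.8, 46.0, 102 and 88.7, all with a GATA core and none with TGATAAG. In crh-2, a CREB-family gene, they were 56.4, 61.0, 104, 96.8 and 60.5, within 4950 bp of the start, and the peaks with 61.0 and 104 overlap. The daf-16 sites had 83.8, 99.1, 69.3, 59.6 and 34.5, of which 3 held TGATAAG, and none lay at an internal start. In T28B11.1 they ran from 45.5 to 93.0, and in spat-2 from 38.3 to 122.

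**Figure D4:**
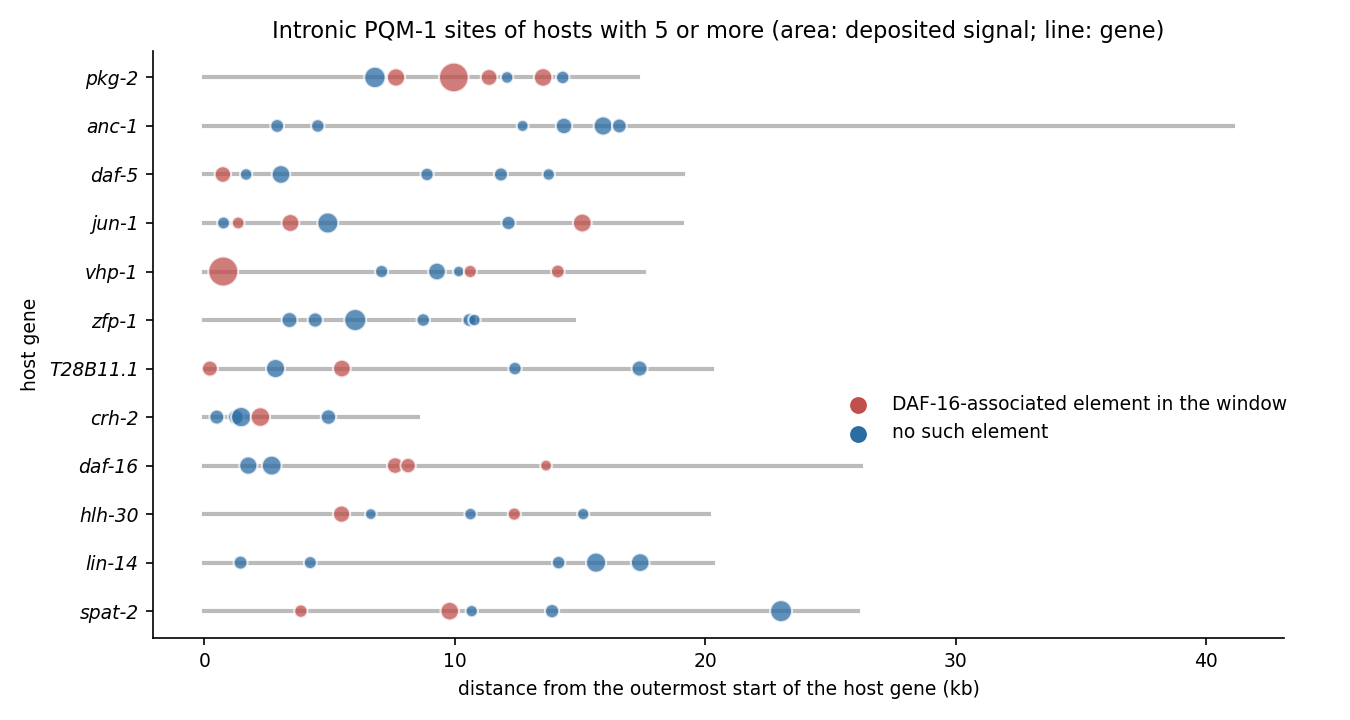
Intronic sites of the 12 genes with 5 or more, drawn at their distance in kb from the outermost start of the host (0), along a line as long as the gene. Circle area is proportional to the deposited signal, and colour shows whether the DAF-16-associated element was in the window. The sites of pkg-2 lie between 6804 and 14303 bp from its start and those of daf-5 are spread over its first intron.

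The 16 genes with 4 sites were mob-2, egl-44, daf-12, lfe-2, C41D11.3, pes-4, let-526, tir-1, aakg-1, C30G4.4, tres-1, tag-343, nhr-19, magu-2, ell-1 and tra-1. In mob-2 signals were 222, 99.7, 53.4 and 128, all in intron 2, which is 14198 bp long. In egl-44 they were 214, 90.8, 74.4 and 34.2 with growing distance from the start. The nuclear hormone receptor gene daf-12, of the dauer and lipid pathways, had 66.3, 148, 40.8 and 33.9, the strongest 3852 bp into the gene. In aakg-1, an AMP-activated kinase subunit gene, they were 44.8, 37.6, 57.0 and 79.6 at 7017 to 26725 bp. The highest values of the other 12 ran from 54.1 in tra-1, a sex determination factor, to 109 in lfe-2, an inositol trisphosphate kinase gene. In ell-1 the peaks with 44.1 and 42.9 overlap.

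Gene lists by tissue and pathway were read as counts of hosts, beside 4.39% of all genes and beside the share of all genes at the same lengths of eligible intron. The lists were chosen with earlier results of these data known, so their shares are a description and were not tested. Of the 32 intestine genes with eligible intron, 13 were hosts (40.6%, 23.7 to 59.4%), against 8.93% at the same lengths. The strongest were erm-1 (3 sites, up to 204), eps-8 (3 sites, up to 159) and gtl-1 (1 site, 138), a gut TRP channel. Further hosts of the list were itr-1, the inositol trisphosphate receptor (93.6), and pept-1, a peptide transporter (60.4). Of 50 transcription factors of gut, lipid and stress control, 19 were hosts (38.0%, 24.7 to 52.8%, against 10.8%), with egl-44 (214), egl-27 (190) and daf-12 (148) first. The stress regulator skn-1 held 3 sites (up to 91.3), the immune factor atf-7 held 3 (up to 61.5) and the lipid regulator sbp-1 held 1 (39.4). The gut, lipid and stress list shares members with others, and the 11 lists together named 60 different hosts.

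Among signalling lists, 8 of 33 MAP kinase genes were hosts (24.2%, 11.1 to 42.3%, against 11.6% at the same lengths). They were led by vhp-1 (228), lin-1 (104), an ETS factor, and soc-2 (85.3), a Ras pathway scaffold. Of 20 TGF-beta genes, 5 were hosts (25%, 8.66 to 49.1%, against 8.82%): sma-9 (123), daf-5 (88.1), daf-14 (72.8), daf-3 (68.3) and sma-10 (58.1). Of 29 insulin genes, 4 were hosts (13.8%, 3.89 to 31.7%, against 7.5%): daf-16 (99.1), the kinases sgk-1 (94.0) and pdk-1 (32.7), and let-363, the worm TOR (43.4). Of 27 Wnt genes, 3 were hosts (11.1%, 2.35 to 29.2%, against 8.40%): cam-1 (158), lit-1 (70.7) and the Frizzled receptor lin-17 (36.5). The intervals of all 4 signalling lists include the share at the same lengths.

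In the lists of other tissues the share of hosts ran from 0.0 to 16.7%. Of 34 body wall muscle genes, 0 were hosts, which allows up to 10.3% by the exact interval, against 13.5% of all genes at the same lengths. Of 51 neuronal genes, 5 were hosts (9.80%, 3.26 to 21.4%, against 13.5%), with egl-30 (134), a G protein subunit, unc-43 (107), a calcium-dependent kinase, and egl-8 (85.7), a phospholipase, first. Of 24 hypodermis and cuticle genes, 4 were hosts (16.7%, 4.74 to 37.4%, against 7.12%): elt-3 (102), a GATA factor, ajm-1 (95.4), vab-10 (81.1) and dlg-1 (63.1). Germline genes had 1 host of 28 (gld-2, 2 sites, up to 59.7; 3.57% against 3.65%) and pharynx genes 1 of 17 (pha-4, 68.9; 5.88% against 6.93%).

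**Figure D5:**
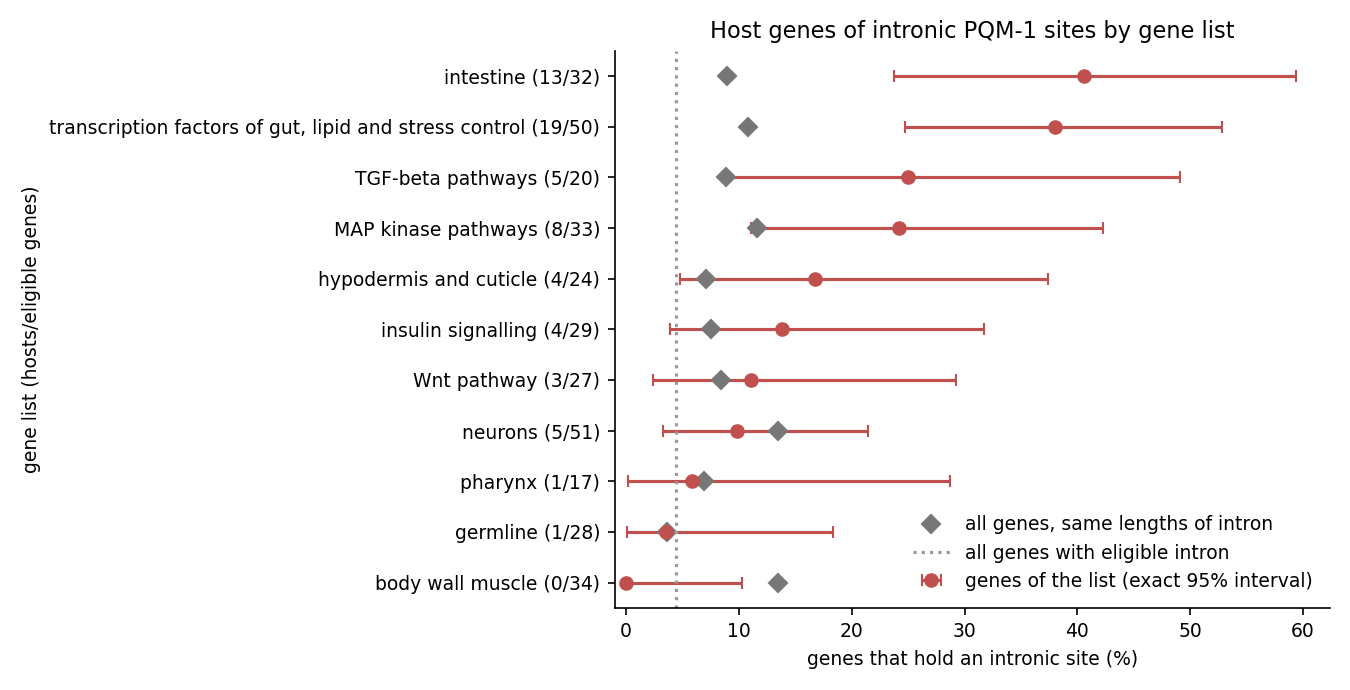
Share of genes that hold an intronic site (percent, exact 95% intervals) in each of 11 gene lists, with hosts and eligible genes in brackets. Diamonds give the share among all genes with the same lengths of eligible intron and the dotted line the 4.39% of all genes: the intestine list had 40.6% beside 8.93%, and the body wall muscle list 0.0% beside 13.5%. The lists were chosen with earlier results of these data known.

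At the edges of the rule, the 25 intronic sites in the first 100 bp past the downstream end of a promoter had a median signal of 61.5, and the 59 promoter sites in the last 100 bp before that end had 56.9. At the upstream end, 5 intronic sites within 100 bp outside had a median of 44.1 and 71 promoter sites within 100 bp inside had 60. TGATAAG was in 56.0, 54.2, 40 and 40.8% of these sites, in that order.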

How the data were processed

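The deposited peak lists give each peak a position, a summit and a signal value, which per the deposited readmes the authors computed against a control for each replicate, for both pooled and for the optimal list that passed a cutoff on reproducibility (IDR). The peak caller, the aligner and that cutoff were not given in the sources used here. The lists hold no read counts, so depth is unknown and intervals cover counting over sites only. Lists on ce10 were not used here.

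Optimal ce11 summits were placed by the Ensembl release 115 annotation of WBcel235, the same build. Intron order came from the host's longest coding transcript with the summit in an intron. Replicate values are those of replicate peaks overlapping by at least 1 bp, and members that met the same peak share its value. Motifs were searched on both strands of 201 bp windows, and in equal windows centred 1000 bp away in intron that overlapped no optimal peak. Shares were compared by two-sided Fisher's exact tests, with Benjamini-Hochberg adjustment over 12 motif, 2 signal and 2 within-intron tests and over 8192 words of 7 bases (reverse complements merged). The word test was tested on simulated data. Sites are treated as independent and are not replicates of animals. Shares carry Clopper-Pearson, densities Poisson, differences Newcombe and ratios conditional intervals, at 95%. Python 3.11.15, NumPy 2.4.6, pandas 2.3.3 and SciPy 1.17.1 were used.

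The members and gene lists were chosen with earlier results of these data known. Genes are named when they host 1 of the 25 strongest sites or 4 or more sites, rank in the first 3 of a list by their strongest site, or hold 1 of the 5 strongest sites at internal starts, with pqm-1 and daf-16 in any case. Further list members and hosts beside small RNA genes were named after their values were seen. Alternatives were the stronger 50% of the peaks, 2 times as many peaks from the pooled list, each replicate left out, peak midpoints, promoters of 500 or 2000 bp or at every transcript start, and windows of 101 bp.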

Additional observations from a re-analysis of the deposited data

How the results depend on the processing

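No paired analysis was possible because the samples form 1 group. Across 9 alternative settings and 19 results, 166 values were computed: 130 kept their direction and their side of the threshold or stayed in range, 6 lost and 9 gained a call, 8 moved and 13, all without a call, changed sign. The higher share of GATA cores at intronic than at promoter sites passed under each of the 9 settings, at 4.48 points in the stronger 50% of the peaks and 9.75 points without replicate 2 at the extremes. The causes of the changes below were not tested, apart from the numbers of sites, which follow from the settings.

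Setting promoters at every transcript start apart lowered the intronic count from 1077 to 748, a change that was scored as in range. The stronger 50% of the peaks held 544 intronic sites and the longer pooled list 2116. In those lists and in windows reaching 50 bp to each side, TGATAAG differed between first and later introns by -4.22, -1.12 and -3.54 points and between internal-start and other sites by -8.90, -4.80 and -6.98 points, none of which passed. Its difference from promoter sites passed at 4.40 points in the longer list, 5.07 by peak midpoint, 5.10 with promoters of 2000 bp, 8.30 with every transcript start, and 5.77 to 6.01 with a replicate left out. With every transcript start, its difference from intergenic sites passed at 6.45 points and the density ratio of first to later introns was 1.86. Against promoters, CACGTG passed at 1.76 points in the longer list and GAGAGA at 4.42 points without replicate 2. Words passing numbered 105 in the longer list, 2 by midpoint, 3 with promoters of 500 bp, 2 with every transcript start and 0 to 4 with a replicate left out.

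Changes of sign among differences without a call were as follows. In the stronger 50%, the GATA core against intergenic sites was -1.20 points, GAGAGA against intergenic sites 1.97, TTCNNGAA against promoters -0.783 and the top-quintile share against promoters -1.38. TTCNNGAA against promoters was -0.824 to 0.0968 points with a replicate left out and -0.0412 in the narrower windows. With promoters of 500 bp, the top-quintile share was -0.377 against promoters and 0.303 against intergenic sites, and GTAAACA -0.234 against intergenic sites. GTAAACA against promoters was -0.0777 with promoters of 2000 bp, -0.393 with every transcript start and -0.234 in the narrower windows, and against intergenic sites -0.143 with every transcript start. Read depth is unknown here, so how far depth limits the weaker sites was not tested.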
